A study of Homo sapiens with 44 samples.

Results

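Amino acids enter and leave a cell through solute carriers, and 10 genes that encode such carriers are described here: SLC7A11, SLC7A5, SLC3A2, SLC7A3, SLC7A1, SLC1A4, SLC1A5, SLC38A1, SLC38A2 and SLC6A9. They were taken by symbol from the 19923 genes of the deposited count tables. They were chosen by their known role and selected on input changes of several of them that had been seen in Kelly cells at 6 days, so every comparison of the 6 day Kelly libraries is given as a description, without a p-value. The series asks how transcript levels and m6A, a methyl mark on adenosines of mRNA, differ in neuroblastoma cells when METTL3, the enzyme that writes the mark, is inhibited by the small molecule STM2457. Each RNA sample was sequenced as input (all poly(A) RNA) and after pulldown with an antibody against m6A (RIP).

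The 44 libraries fell into 16 groups. Kelly and NGP are established human neuroblastoma cell lines, both labelled MYCN-amplified and wild type. Kelly cells received 8 µM STM2457 or DMSO for 1 day or for 6 days, and NGP cells received the same for 6 days, with 3 libraries in each group. In the xenograft, Kelly cells grew under the skin of nude mice of both sexes, which lack mature T cells but keep their own stroma, vessels and other immune cells. These mice were injected daily with 50 mg/kg STM2457 or with vehicle, labelled DMSO, for 14 days, and each group had 2 libraries. Cultured cells were kept in RPMI1640 with serum and added L-glutamine; no label says how often the medium was renewed. Each line stands for 1 patient's tumour, and nothing in the labels says whether replicates came from separate cultures, so p-values may measure technical spread only.

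Several of the carriers work in pairs or as exchangers. SLC3A2 is the heavy chain (CD98) that brings light chains to the plasma membrane; with SLC7A11 it forms the exchanger that imports cystine, a precursor of glutathione, against glutamate, and with SLC7A5 it forms LAT1, which imports leucine and other large neutral amino acids. SLC7A1 and SLC7A3 carry arginine and lysine. SLC1A4 and SLC1A5 exchange alanine, serine, cysteine and, for SLC1A5, glutamine. SLC38A1 and SLC38A2 import glutamine and other neutral amino acids with sodium, and SLC6A9 imports glycine. Many of these genes are known targets of ATF4, a transcription factor made when amino acids are short or the endoplasmic reticulum is stressed, and ATF4 with a C/EBP partner binds the letters TGATGNAA.

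The promoter table from RefSeq (GRCh38.p14; 250 bases before to 50 after each start) held 14 promoters of 8 of the 10 genes; SLC7A11 and SLC7A3 had no entry. The letters TGATGNAA, searched on both strands, stood in 5 of these 14 promoters (35.7%), 1 each for SLC3A2, SLC7A1, SLC1A4, SLC1A5 and SLC38A1. They stood in 3.62% of all 35116 promoters of the table and in 2.71% of those of genes in the count tables. A match of letters is a description and not a bound site. The stretches with a match are shown because the genes that hold them differ in their input change below; each runs 5′ to 3′ in the direction of the gene, with the matched letters in capitals.
SLC3A2, chr11:62881719-62881748, plus strand: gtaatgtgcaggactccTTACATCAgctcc
SLC7A1, chr13:29595664-29595781, minus strand: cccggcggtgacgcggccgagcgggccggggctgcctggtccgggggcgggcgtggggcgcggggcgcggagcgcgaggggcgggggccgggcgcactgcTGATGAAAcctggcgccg
SLC1A4, chr2:64989292-64989423, plus strand: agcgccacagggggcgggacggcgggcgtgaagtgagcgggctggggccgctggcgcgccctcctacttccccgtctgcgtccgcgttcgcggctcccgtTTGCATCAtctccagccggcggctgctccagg
SLC1A5, chr19:46784844-46785011, minus strand: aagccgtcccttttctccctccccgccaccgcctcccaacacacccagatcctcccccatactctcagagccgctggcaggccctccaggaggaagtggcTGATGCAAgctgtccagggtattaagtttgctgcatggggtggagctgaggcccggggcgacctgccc
SLC38A1, chr12:46266492-46266620, minus strand: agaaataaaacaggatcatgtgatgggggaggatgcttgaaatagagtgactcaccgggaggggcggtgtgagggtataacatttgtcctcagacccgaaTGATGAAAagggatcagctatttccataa
In SLC3A2 and SLC1A4 the letters lay on the opposite strand. SLC7A5, SLC38A2 and SLC6A9 had no match in these windows. Among the other lists read here, 6 of 34 promoters of amino acid response genes (17.6%) and 1 of 49 promoters of other amino acid carriers (2.04%) held the letters.

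The 1 day Kelly inputs held 24.1 to 26.6 M fragments each and the 6 day Kelly inputs 5.77 to 31.5 M. NGP inputs were shallower (5.49 to 11.6 M), and those of the xenograft had the fewest (2.14 to 7.27 M). All 11 neuroblastoma markers had counts in every input library. Of 18 markers of stroma, endothelium, blood and Schwann cells, 17 were in the tables, and their summed level was at most 118 CPM (counts scaled to the library total) in any input against at least 12614 CPM for the neuroblastoma markers. No label says whether reads of the mouse host were removed from the xenograft libraries. The header folders hold no libraries of more than 1 experiment, so experiment and a possible batch cannot be told apart.

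Per length of transcript, SLC1A5 and SLC7A5 were the most abundant of the 10 genes in untreated Kelly cells at 1 day, at 376 ± 10.4 and 291 ± 12.7 TPM (counts scaled by transcript length and library; mean ± SD, n = 3). SLC38A1 followed at 136 ± 9.78 TPM, SLC7A1 at 135 ± 3.30 TPM and SLC3A2 at 132 ± 10.2 TPM, and these 3 did not differ beyond their spread. SLC38A2 stood at 42.5 ± 5.26 TPM, SLC1A4 at 11.8 ± 0.582 TPM, SLC6A9 at 7.74 ± 0.694 TPM and SLC7A11 at 5.11 ± 1.01 TPM. SLC7A3 was nearly absent: its count was 5 or less in every input library and 0 in every NGP and xenograft input, so it was tested in no comparison. SLC1A5 was the most abundant carrier in each of the other DMSO groups too, at 259 ± 1.79 TPM in Kelly at 6 days, 148 ± 2.71 TPM in NGP (n = 3 each) and 171 ± 2.25 TPM in the xenograft (n = 2).

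**Figure D1:**
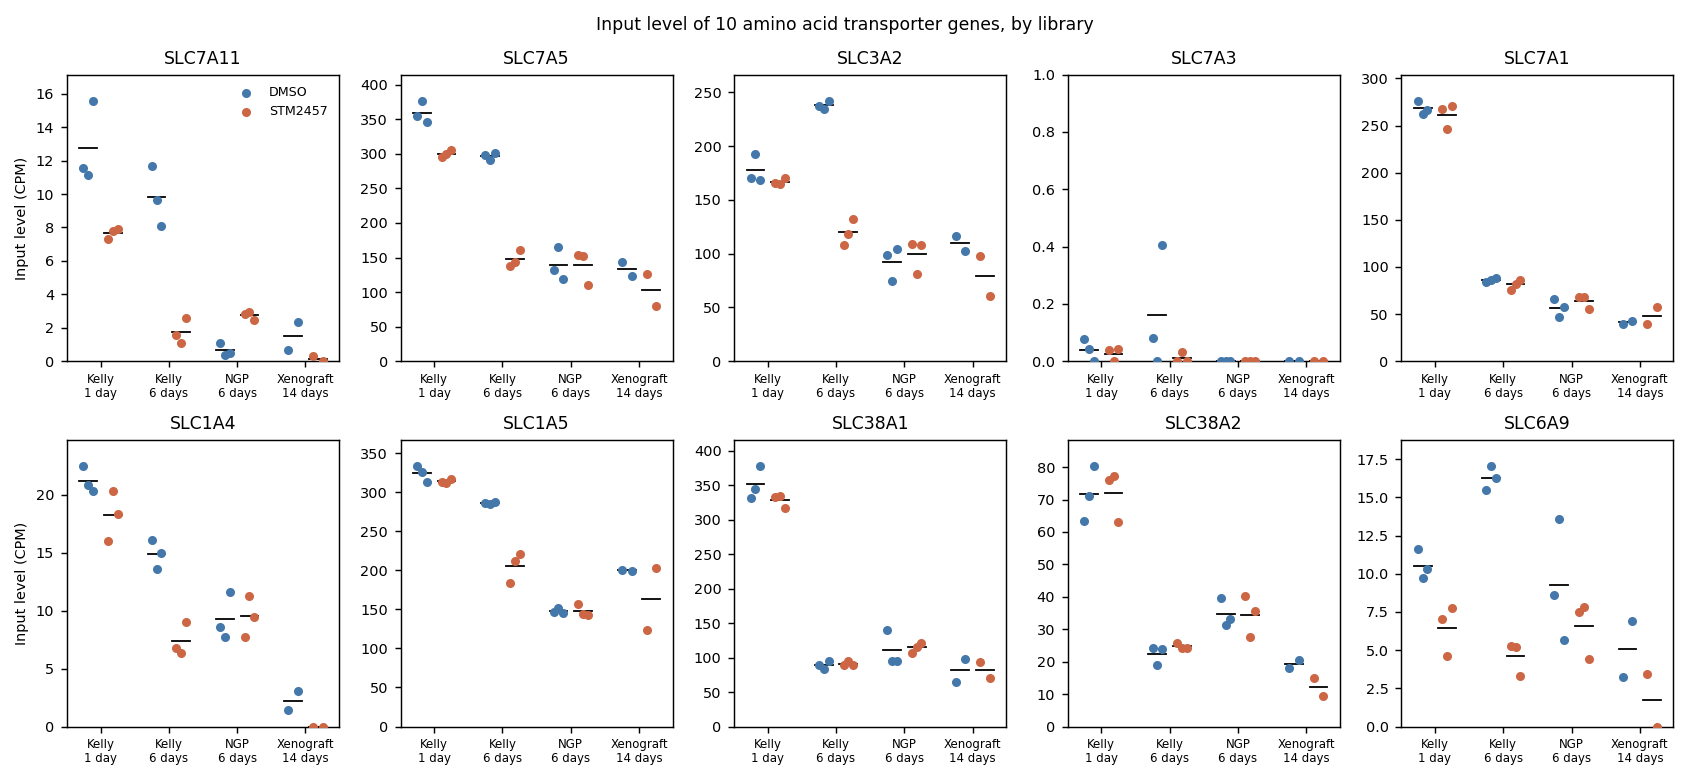
Input level in CPM (vertical axis, linear and from 0 in each panel) of the 10 carrier genes in the 22 input libraries, by experiment; points are libraries, lines are group means, blue is DMSO and orange STM2457. In Kelly at 6 days every STM2457 point of SLC7A11, SLC7A5, SLC3A2, SLC1A4, SLC1A5 and SLC6A9 lies below every DMSO point, while in NGP the points of all of these but SLC7A11 overlap.

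The cystine exchanger subunit SLC7A11 (chromosome 4, GRCh38 138164097 to 138242349, minus strand, 9645 exonic bases) fell in Kelly cells within 1 day. Its DMSO inputs read 11.5, 11.1 and 15.6 CPM and its STM2457 inputs 7.32, 7.78 and 7.94 CPM. The groups did not overlap, and the log2 change was -0.76 ± 0.14 (SE; edgeR adjusted p = 0.00146). Leaving out any 1 library kept the call, with changes from -0.84 to -0.60. At 6 days the DMSO inputs read 11.7, 9.62 and 8.10 CPM and the STM2457 inputs 1.57, 1.11 and 2.60 CPM, a log2 difference of -2.79 ± 0.27 that left 14.5% of the control level. The STM2457 library with 2.60 CPM was the shallowest of that experiment, and without it the difference was -2.96. In bulk RNA, fewer cells with a transcript and less of it per cell cannot be told apart.

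In NGP cells SLC7A11 was near the limit of detection and lay higher with the inhibitor. The DMSO inputs read 1.09, 0.358 and 0.497 CPM and the STM2457 inputs 2.84, 2.91 and 2.49 CPM. The groups did not overlap, but only 1 DMSO library reached the minimum for testing (0.975 CPM) against all 3 STM2457 libraries, so the gene was tested only through the group where it was high. The log2 change of 1.95 ± 0.89 did not pass (edgeR adjusted p = 0.253). The change in NGP minus that in Kelly at 1 day was 2.66 ± 0.48 on the log2 scale (edgeR interaction, adjusted p = 0.00866), a comparison added after the values were seen. It was the only 1 of 9 carriers called there, where 1.1% of 13773 genes were. Cell line, day and experiment differ together in it and cannot be told apart. That fit shares 1 spread between both experiments. Its SE lies below the 0.89 of NGP fitted alone, where the change did not pass. In the xenograft inputs SLC7A11 had 3 and 17 counts with vehicle and 1 and 0 with STM2457, too few to be tested.

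SLC3A2, the shared heavy chain (chromosome 11, 62856102 to 62888875, plus strand), was lower with STM2457 in Kelly at 6 days but was not called at 1 day. At 1 day the DMSO inputs read 170, 193 and 169 CPM and the STM2457 inputs 166, 165 and 170 CPM. These ranges overlap, and the log2 change was -0.11 ± 0.06 (edgeR adjusted p = 0.183). At 6 days the values were 237, 235 and 242 CPM against 108, 119 and 133 CPM. The difference was -1.11 ± 0.07, with all treated libraries below all controls.

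SLC7A5, the LAT1 light chain (chromosome 16, 87830023 to 87869507, minus strand), fell in Kelly cells at 1 day. The DMSO inputs read 354, 377 and 347 CPM and the STM2457 inputs 296, 300.4 and 305 CPM. The log2 change was -0.28 ± 0.05 (edgeR adjusted p = 0.000452), and the groups did not overlap. At 6 days the DMSO inputs read 299, 291 and 302 CPM and the STM2457 inputs 138, 144 and 161 CPM, a difference of -1.13 ± 0.06. In NGP the DMSO inputs read 132, 166 and 119 CPM and the STM2457 inputs 154, 152 and 111 CPM, which overlap (log2 change -0.07 ± 0.17; edgeR adjusted p = 0.881).

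Of the arginine and lysine carriers, SLC7A1 (chromosome 13, 29509414 to 29595688, minus strand) moved little with the inhibitor. At 1 day in Kelly it read 276, 262 and 266 CPM with DMSO and 267, 246 and 270.4 CPM with STM2457, with a log2 change of -0.06 ± 0.05 (edgeR adjusted p = 0.432). At 6 days it read 84.3, 86.7 and 88.7 CPM against 76.0, 82.4 and 86.2 CPM. These ranges overlap in CPM; after TMM scaling of the libraries the treated values all lay below the controls, with a difference of -0.20 ± 0.07. SLC7A3 (chromosome X, 70925579 to 70931125, minus strand) gave no testable counts.

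The glutamine exchanger SLC1A5 (chromosome 19, 46774883 to 46788594, minus strand) and the related SLC1A4 (chromosome 2, 64988477 to 65023865, plus strand) were lower in Kelly at 6 days. SLC1A5 read 287, 284 and 288 CPM with DMSO and 184, 211 and 221 CPM with STM2457, a log2 difference of -0.59 ± 0.07. SLC1A4 read 16.1, 13.6 and 15.0 CPM against 6.73, 6.38 and 9.02 CPM, a difference of -1.19 ± 0.16. At 1 day neither passed: SLC1A5 changed by -0.07 ± 0.04 (edgeR adjusted p = 0.292) and SLC1A4 by -0.24 ± 0.11 (adjusted p = 0.128), although the 3 treated libraries of SLC1A4 lay below the 3 controls after TMM scaling. In the xenograft inputs SLC1A4 had 6 and 22 counts with vehicle and 0 and 0 with STM2457. A count of 0 allows up to 0.941 and 1.40 CPM in those libraries by a floor of 3 counts, and the vehicle libraries stood at 1.40 and 3.03 CPM. The gene did not pass the filter on low counts in the xenograft and was not tested there.

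The sodium-coupled glutamine carriers SLC38A1 (chromosome 12, 46183063 to 46270017, minus strand) and SLC38A2 (chromosome 12, 46358188 to 46372773, minus strand) overlapped between treatments in Kelly at 6 days. SLC38A1 read 89.9, 83.3 and 95.6 CPM with DMSO and 89.2, 95.2 and 89.0 CPM with STM2457 (log2 difference -0.08 ± 0.07). SLC38A2 read 24.3, 18.9 and 24.0 CPM against 25.9, 24.1 and 24.1 CPM (0.04 ± 0.12). At 1 day SLC38A1 changed by -0.12 ± 0.05 (edgeR adjusted p = 0.0864, while DESeq2 called it) and SLC38A2 by -0.015 ± 0.08 (adjusted p = 0.932). In the xenograft SLC38A2 read 18.1 and 20.6 CPM with vehicle and 15.0 and 9.32 CPM with STM2457, and its change of -0.54 ± 0.61 did not pass (edgeR adjusted p = 0.877).

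The glycine carrier SLC6A9 (chromosome 1, 43991500 to 44031467, minus strand) fell at 1 day in Kelly. It read 11.6, 9.69 and 10.3 CPM with DMSO and 7.05, 4.59 and 7.73 CPM with STM2457, a log2 change of -0.73 ± 0.17 (edgeR adjusted p = 0.00699). At 6 days it read 15.5, 17.1 and 16.3 CPM against 5.27, 5.21 and 3.30 CPM, a difference of -1.84 ± 0.17 that left 28.0% of the control level. In NGP it read 8.60, 13.6 and 5.67 CPM against 7.50, 7.83 and 4.40 CPM. Those ranges overlap, and the change of -0.57 ± 0.44 did not pass (edgeR adjusted p = 0.548). Of its exonic bases, 413 (7.87%) are shared with CCDC24, where fragments were not assigned or cannot be separated.

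Counted over the set, 3 of the 9 tested carriers were called in Kelly at 1 day, all lower, where 17.5% of 13246 genes were called in either direction and 8.06% lower. The median log2 change of the 9 was -0.12 against 0.01 for all genes tested. All 3 calls were kept with RLE size factors, with DESeq2, without the filter on low counts and without any 1 library; with all 8 input groups in 1 fit, which shares 1 spread with the more variable xenograft, 0 were called. In Kelly at 6 days, 7 of 9 lay lower without overlap, where 21.8% of 12773 genes did. The median was -1.11 against 0.00 for all genes, and the choice of genes used these values. In NGP, 0 of 9 were called by edgeR and 0 by DESeq2, where 4.23% of 12289 genes were called by edgeR and 2154 had an unadjusted p under 0.05. Apart from SLC7A11 and SLC6A9, the log2 changes of the carriers in NGP ran from -0.077 (SLC38A2) to 0.11 (SLC7A1), with SEs of 0.15 to 0.37. In the xenograft, 0 of 7 tested carriers were called, where 0% of 11329 genes were and 968 had an unadjusted p under 0.05. Changes there ran from -0.54 ± 0.61 (SLC38A2) to 0.35 ± 0.36 (SLC7A1), apart from SLC6A9, which read 3.26 and 6.88 CPM with vehicle and 3.45 and 0 CPM with STM2457. On simulated counts the same test found 91.9% of 2-fold changes in Kelly at 1 day, 62.6% in NGP and 3.23% in the xenograft, so a 2-fold change was mostly not detectable in the xenograft.

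**Figure D2:**
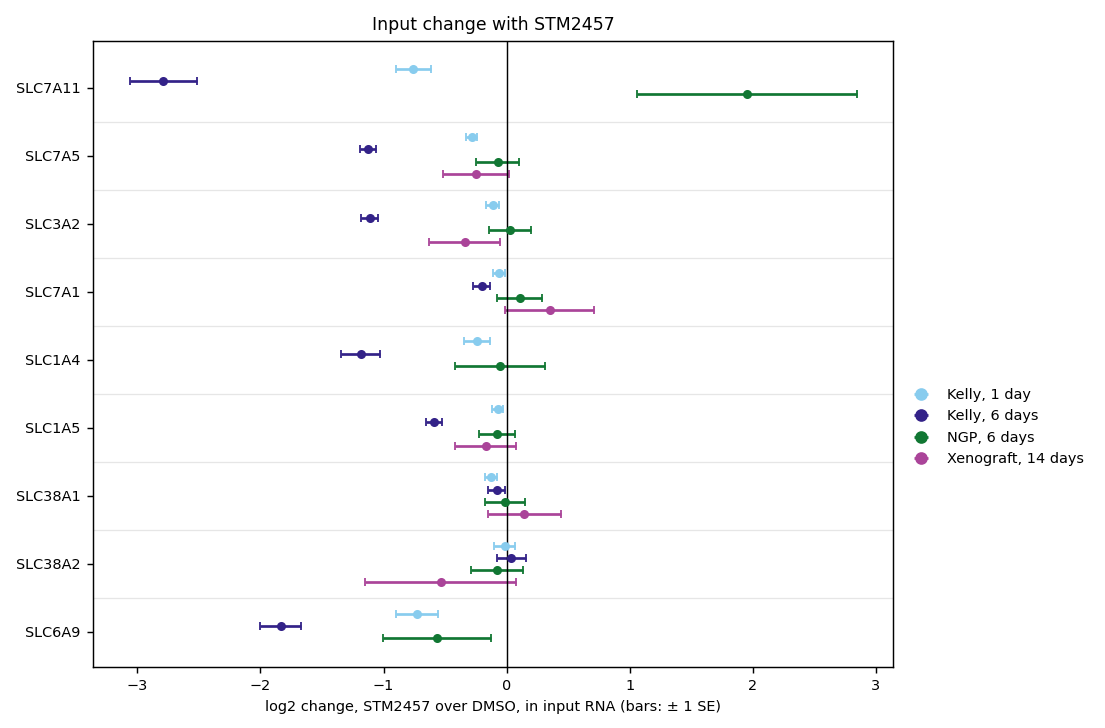
Log2 change of input RNA, STM2457 over DMSO (horizontal axis; bars are ± 1 SE from edgeR), for 9 carriers in 4 experiments; SLC7A3 is not drawn, nor are genes untested in the xenograft or SLC6A9 there, whose error was over 1.6. In Kelly SLC7A11 and SLC6A9 lie farthest left, at -2.79 and -1.84 at 6 days, and SLC7A11 in NGP lies right of 0 at 1.95.

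The untreated groups differed among themselves in the same carriers. From 1 day to 6 days in DMSO, Kelly inputs had less SLC38A1 (log2 difference -1.58 ± 0.14), SLC38A2 (-1.28 ± 0.17) and SLC7A1 (-1.24 ± 0.12), and more SLC6A9 (1.02 ± 0.38) and SLC3A2 (0.82 ± 0.14). Against Kelly at 6 days, NGP cells had less SLC7A11 (-4.00 ± 0.46), SLC3A2 (-1.54 ± 0.14), SLC7A5 (-1.28 ± 0.14) and SLC1A5 (-1.13 ± 0.11). Kelly xenografts had less SLC1A4 (-2.66 ± 0.36), SLC7A11 (-2.57 ± 0.50), SLC6A9 (-1.63 ± 0.48) and SLC7A5 (-1.15 ± 0.17) than Kelly culture at 6 days. These differences come from 1 edgeR fit of all inputs and carry no test. Every one of them involves the Kelly DMSO inputs at 6 days, which were part of the choice of the carriers.

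Other genes of amino acid handling were read beside the carriers. Of 39 further amino acid carriers, 22 were tested in Kelly at 1 day, with 1 called higher and 0 lower by edgeR, where 17.5% of all genes were called in either direction. Their median log2 change was 0.05 against 0.01 for all genes. The higher one was SLC6A17, a vesicular carrier of neutral amino acids in neurons, which rose from 40.7 ± 0.199 to 50.7 ± 2.96 CPM (n = 3; log2 change 0.29 ± 0.07; edgeR adjusted p = 0.00904). It also rose in NGP, from 39.4 ± 3.16 to 85.2 ± 19.0 CPM (1.04 ± 0.19; adjusted p = 0.00148). The other call in NGP among 17 tested was SLC38A5, a glutamine and histidine carrier, which fell by 0.75 ± 0.19 on the log2 scale (edgeR adjusted p = 0.0211). Of all genes tested in NGP, 4.23% were called in either direction.

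In the list of amino acid response genes, which holds ATF4 and its known targets, 13 of 26 tested genes were called lower and 1 higher in Kelly at 1 day, where 8.06% of all genes tested were called lower, with a median log2 change of -0.23. PHGDH, the first enzyme of serine synthesis, fell from 521 ± 12.0 to 346 ± 9.23 CPM (n = 3; -0.61 ± 0.04; edgeR adjusted p = 1.72e-07). STC2, a secreted glycoprotein, changed by -0.81 ± 0.15 (adjusted p = 0.00108), and CHAC1, which degrades glutathione, by -0.76 ± 0.15 (adjusted p = 0.00233). At 6 days 24 of 26 lay lower without overlap, where 21.8% of all genes did, with a median of -1.07; this list was chosen with such falls known. In NGP 1 of 26 tested was called lower, STC2 (-1.53 ± 0.20, edgeR adjusted p = 3.94e-05). The 1 called higher was JDP2, a bZIP transcription factor (1.20 ± 0.26, edgeR adjusted p = 0.00807). The median there was -0.23, and 4.23% of all genes tested in NGP were called in either direction. In the xenograft 0 of 25 were called by edgeR.

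The glutathione and NRF2 list, which bears on the use of imported cystine, had 1 gene called higher among 13 tested in Kelly at 1 day. KEAP1, which targets NRF2 for degradation, rose from 161 ± 3.76 to 193 ± 4.52 CPM (n = 3; 0.24 ± 0.05; edgeR adjusted p = 0.00263). In NGP KEAP1 was the 1 gene of 12 called (0.64 ± 0.15, edgeR adjusted p = 0.0161), where 4.23% of all genes were.

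Over the 22 input libraries, with each experiment centred on its own mean of log2(CPM + 1), the genes most like the carriers included 3 of the amino acid response list, GPT2, SESN2 and ATF5. GPT2, an alanine aminotransferase, was nearest to SLC3A2 (r = 0.928), to SLC7A5 (r = 0.895) and to the mean of the 7 carriers measured in all experiments (r = 0.888). SESN2 (r = 0.881) and OLFM1 (r = 0.871) came next for that mean. SLC1A5 was nearest to ATF5 (r = 0.927), SLC7A11 to ITGB5 (r = 0.916), and SLC6A9 to SEC61B (r = 0.886). These values are descriptions among 10575 genes; the libraries share their treatments and include the 6 day Kelly groups used in the choice of the carriers.

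In the pulldown of untreated cells, some carriers lay above and some below the bulk of the transcriptome. In Kelly at 1 day their shares were similar to those of all genes tested. RIP over input was scaled to the libraries' own totals (TMM), so it ranks transcripts and is no absolute methylation level. In Kelly at 1 day, 7 of 9 tested carriers were called, 4 higher and 3 lower, where 67.6% of 13669 genes were called, 33.3% higher and 34.3% lower. SLC7A5 read 354, 377 and 347 CPM in the inputs and 1380, 1265 and 1318 CPM in the RIP libraries, a log2 ratio of 1.94 ± 0.07 (edgeR adjusted p = 4.34e-11). SLC1A4 had 1.39 ± 0.28, SLC7A1 1.01 ± 0.07 and SLC1A5 0.58 ± 0.10. SLC38A2 lay at the other end: 63.3, 71.1 and 80.4 CPM in the inputs and 18.6, 29.9 and 19.1 CPM in the RIP libraries, a ratio of -1.61 ± 0.20 (adjusted p = 9.63e-06). SLC38A1 had -1.24 ± 0.09 and SLC3A2 -0.46 ± 0.12.

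A further scaling set the 13 mitochondrial mRNAs equal between RIP and input, which are transcribed inside mitochondria, away from nuclear METTL3. With it the median over genes in Kelly at 1 day was 1.57 in place of -0.07, and all 9 carriers lay above 0, from 0.018 for SLC38A2 to 3.58 for SLC7A5. In Kelly at 6 days, where the values are a description, 7 of 9 carriers did not overlap between RIP and input, against 78.1% of 13324 genes. SLC1A5 (1.89 ± 0.19), SLC1A4 (1.77 ± 0.37), SLC7A1 (1.41 ± 0.20) and SLC7A5 (1.24 ± 0.22) were above input there and SLC38A2 (-2.41 ± 0.42), SLC38A1 (-1.07 ± 0.22) and SLC3A2 (-1.02 ± 0.36) below.

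**Figure D3:**
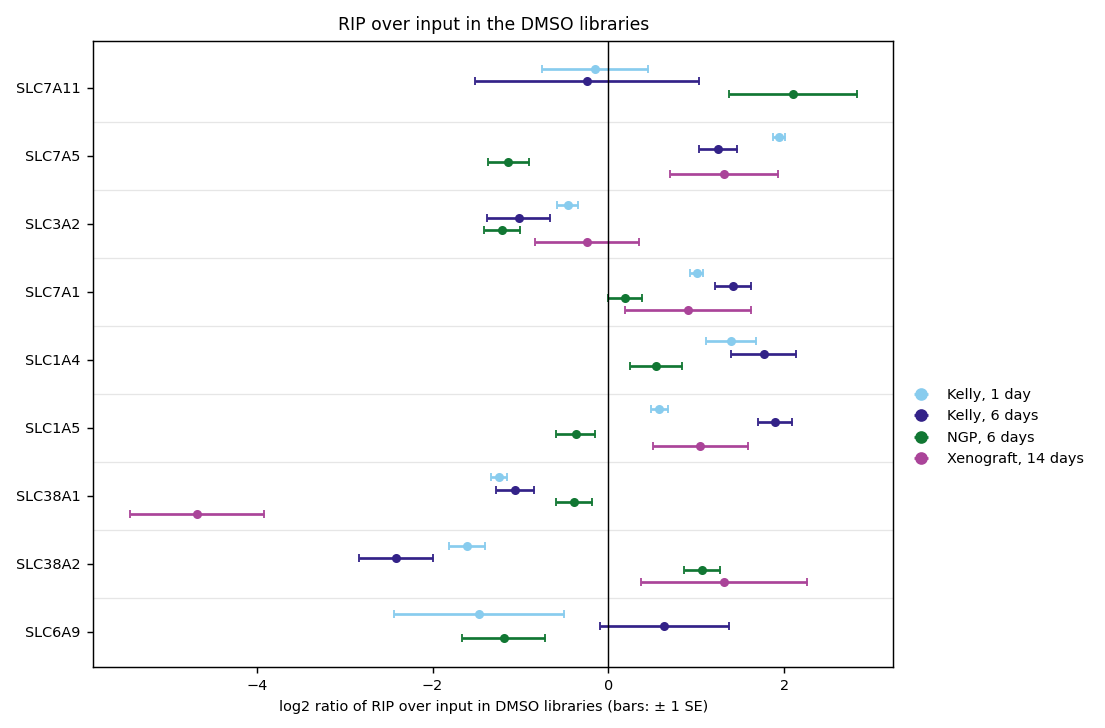
Log2 ratio of RIP over input in DMSO libraries (horizontal axis, TMM scaling; bars are ± 1 SE from edgeR) for 9 carriers in 4 experiments; SLC7A3, and SLC7A11, SLC1A4 and SLC6A9 in the xenograft, are not drawn. SLC7A5 lies right of 0 in the 3 Kelly experiments and at -1.14 in NGP. SLC38A2 lies left of 0 in both Kelly cultures, at 1.06 in NGP and at 1.31 in the xenograft.

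NGP cells showed another order. Of 9 carriers, 5 were called, where 55.5% of 13088 genes were. SLC7A5 read 132, 166 and 119 CPM in the inputs and 102, 59.1 and 43.996 CPM in the RIP libraries, a log2 ratio of -1.14 ± 0.23 (edgeR adjusted p = 0.000262). SLC38A2 read 39.6, 31.3 and 33.02 CPM in the inputs and 65.6, 75.3 and 90.5 CPM in the RIP libraries, a ratio of 1.06 ± 0.21 (adjusted p = 0.000146). Neither gene's RIP and input libraries overlapped. SLC3A2 had -1.21 ± 0.20 (adjusted p = 2.42e-05). SLC7A11 (2.102 ± 0.73, edgeR adjusted p = 0.0174) and SLC6A9 (-1.19 ± 0.47, edgeR adjusted p = 0.0355) rested on low counts. SLC7A11 reached the minimum for testing (0.810 CPM) in 1 of 3 DMSO inputs and in all 3 DMSO RIP libraries. It was thus tested only through groups where it was high, and its call supports nothing. On leaving out each of the 6 DMSO libraries in turn, the call of SLC7A11 was lost 2 times and that of SLC6A9 4 times. Both were lost without DMSO RIP replicate 3, which left 3 calls. With the mitochondrial reference SLC7A5 stood at -0.27 in NGP against 3.58 in Kelly at 1 day, and SLC38A2 at 1.79 against 0.018. In NGP the calls of SLC7A5 (edgeR adjusted p = 0.554), SLC3A2 (-0.42; adjusted p = 0.297) and SLC6A9 (-0.42; adjusted p = 0.486) were lost with it, and SLC7A1 (1.01; adjusted p = 0.0104) and SLC1A4 (1.37; adjusted p = 0.00715) were called.

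The difference in RIP over input between NGP and Kelly at 1 day was tested as an interaction, chosen after these values were seen. It was called for 8 of 9 carriers, where 49.3% of 14180 genes were called. SLC7A11, 1 of the 8, was near the limit of detection in the NGP inputs. The interaction was not run with the mitochondrial reference, under which SLC38A1 stood at 0.34 in NGP and 0.39 in Kelly at 1 day. SLC7A5 differed by -3.19 ± 0.31 on the log2 scale (edgeR adjusted p = 1.81e-06) and SLC38A2 by 2.55 ± 0.29 (adjusted p = 4.92e-06). Without NGP DMSO RIP replicate 2 the count was 5, with SLC3A2, SLC1A4 and SLC1A5 no longer called. On leaving out each of the 12 libraries in turn, the call of SLC1A4 was lost 7 times, that of SLC3A2 3 times and that of SLC1A5 1 time. Line, day and experiment cannot be told apart in this comparison. At 6 days in Kelly SLC7A5 and SLC38A2 lay on the same sides of input as at 1 day. In the vehicle xenografts of Kelly cells both lay above input without overlap (1.32 ± 0.61 and 1.31 ± 0.95), though neither passed. For SLC38A2 that is the side seen in NGP.

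**Figure D4:**
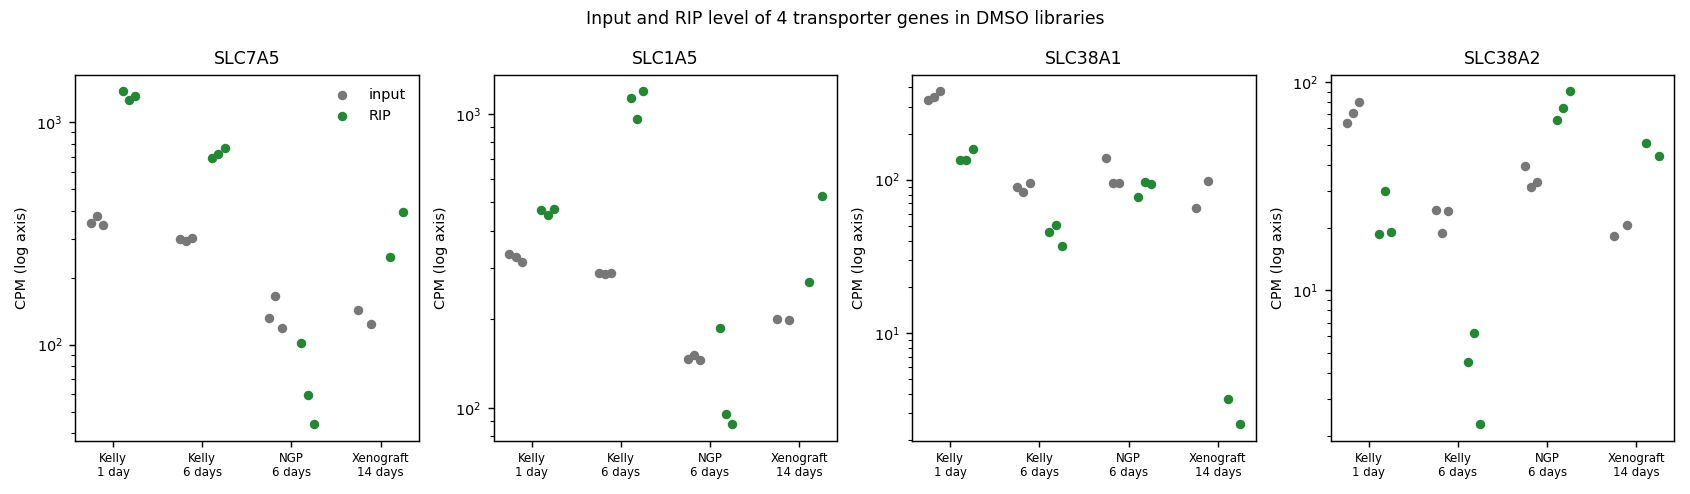
Level in CPM (vertical axis, log scale) of SLC7A5, SLC1A5, SLC38A1 and SLC38A2 in DMSO libraries, by experiment; grey points are inputs and green points RIP libraries. RIP points of SLC7A5 lie above the inputs in both Kelly cultures and the xenograft and below them in NGP. Those of SLC38A2 lie below the inputs in both Kelly cultures and above them in NGP and the xenograft. SLC38A1 in the xenograft falls from 64.9 and 98.0 CPM in the inputs to 3.73 and 2.54 CPM in the RIP libraries.

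In the vehicle xenografts 1 of 8 tested carriers was called, where 3.75% of 12626 genes were. SLC38A1 read 64.9 and 98.0 CPM in the inputs and 3.73 and 2.54 CPM in the RIP libraries, a log2 ratio of -4.68 ± 0.76 (edgeR adjusted p = 0.0179). The call was lost without any 1 of the 4 vehicle libraries (ratios -4.98 to -4.37; adjusted p from 0.0551 to 0.122) and with the mitochondrial reference (-2.46). SLC7A5 (1.32 ± 0.61; adjusted p = 0.228), SLC1A5 (1.04 ± 0.54; adjusted p = 0.277) and SLC38A2 (1.31 ± 0.95; adjusted p = 0.464) did not pass.

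The letters GGACT are a core of the site that METTL3 is known to prefer. In the MANE Select transcripts (GENCODE 44), GGACT occurred 2.12 times per kilobase in SLC3A2, 1.74 in SLC1A5 and 1.53 in SLC1A4, and 0.209 in SLC38A2, which has 1 such site in 4795 bases. The median of 13253 tested genes was 0.928 per kilobase.

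With TMM scaling, which sets the bulk of genes near 0, few carriers were called for a change of RIP over input with STM2457. In Kelly at 1 day 1 of 9 was called, where 17.2% of 13669 genes were. SLC1A5 read 472, 451 and 473 CPM in the DMSO RIP libraries and 257, 362 and 315 CPM in the STM2457 RIP libraries, while its inputs overlapped. The change in its ratio was -0.44 ± 0.14 (edgeR adjusted p = 0.0495); it was lost with RLE size factors (-0.35; adjusted p = 0.104), with DESeq2 (adjusted p = 0.0623), without the low-count filter (-0.30; adjusted p = 0.233) and on leaving out 10 of the 12 libraries in turn. SLC38A2 (0.68 ± 0.28; adjusted p = 0.119) and SLC7A5 (0.22 ± 0.09; adjusted p = 0.145) did not pass; SLC7A5 did with RLE size factors (0.31), with DESeq2 (0.31) and without the filter (0.35). With the mitochondrial reference, where the median of all genes was -1.47, all 9 carriers were lower and 7 were called, so the direction turned for SLC38A2 (-0.76), SLC7A5 (-1.23), SLC3A2 (-1.35), SLC38A1 (-1.22) and SLC6A9 (-1.04).

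In Kelly at 6 days the ratio of 0 of 9 carriers was free of overlap between treatments, where that of 22.3% of 13324 genes was, and the differences ran from -0.79 to 0.57. With the mitochondrial reference all 9 were lower, from -2.65 to -1.42, where the median of all genes was -1.93. In those RIP libraries SLC7A11 read 12.7, 10.4 and 2.56 CPM with DMSO and 2.07, 0 and 0 CPM with STM2457. In NGP 0 of 9 were called, where 0% of 13088 genes were and 764 had an unadjusted p under 0.05. SLC7A11 had the largest difference there, -2.74 ± 0.99 (edgeR adjusted p = 0.839), and only 1 of its 3 DMSO inputs reached the minimum for testing. In the xenograft 0 of 8 were called by edgeR, where 0% of 12626 genes were and 809 had an unadjusted p under 0.05. SLC38A1 read 3.73 and 2.54 CPM in the vehicle RIP libraries and 41.5 and 63.2 CPM with STM2457, and its change of 4.00 ± 0.96 did not pass in edgeR (adjusted p = 0.755), but DESeq2 called it.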

How the data were processed

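The authors deposited 1 table of raw fragment counts per library. Per the file headers, featureCounts 1.5.3 counted paired-end fragments on exons of GENCODE 33 protein-coding genes, by gene name and with no strand option. Per the submitters' processing notes, reads were handled with Trimmomatic 0.36 and HISAT2 2.1.0 on GRCh38. Spike-in RNAs are not analysed here. A few items of the lists are not reported here. The members and gene lists were chosen with earlier results of these data known; the genes named from each list are the 3 largest called changes without overlap in Kelly at 1 day and in NGP. Of 40 replicate pairs, none was as close as sampling noise (lowest chi-square per degree of freedom 2.73).

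Tests were two-sided edgeR 4.0.16 quasi-likelihood tests (R 4.3.3) with TMM, filterByExpr (minimum count 10) and Benjamini-Hochberg adjustment over all genes at 0.05, each experiment fitted alone. SEs come from the log2 value and its F. CPM and TPM were computed from library totals and exonic length. Non-overlap was judged on TMM-scaled values. Alternatives were RLE factors, DESeq2 1.42.0, no filter, a replicate block, all inputs in 1 fit, a mitochondrial reference and each library left out. The tests were tested on simulated data. Floors cover counting error only.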

Additional observations from a re-analysis of the deposited data

Results flagged for a closer look

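RIP over input in DMSO libraries was compared between NGP and Kelly at 1 day (NGP minus Kelly, edgeR interaction). Its log2 ratio differed for 8 of 9 tested carriers, where 49.3% of 14180 genes were called. The differences were -3.19 for SLC7A5 (adjusted p = 1.81e-06), 2.55 for SLC38A2 (4.92e-06 as adjusted p), 2.12 for SLC7A11 (adjusted p = 0.00929), -1.07 for SLC1A5 (adjusted p = 0.00513), -0.98 for SLC1A4 (adjusted p = 0.0244), -0.94 for SLC7A1 (adjusted p = 0.00199), -0.88 for SLC3A2 (adjusted p = 0.00389) and 0.73 for SLC38A1 (adjusted p = 0.0109). On leaving out each of the 12 libraries in turn, the call of SLC1A4 was lost 7 times, that of SLC3A2 3 times and that of SLC1A5 1 time. The input change with STM2457 differed between the same experiments for SLC7A11, by 2.66 (edgeR interaction, adjusted p = 0.00866), where 1.1% of 13773 genes were called. SLC7A11 was near the limit of detection in NGP, and its change there did not pass when NGP was fitted alone (edgeR adjusted p = 0.253). Both comparisons were chosen after the values were seen. The difference in RIP over input was not tested with the mitochondrial reference. With that reference SLC38A1 stood at 0.34 in NGP and 0.39 in Kelly at 1 day. The other called carriers kept the direction of their difference.

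Further pairs of experiments had libraries on opposite sides without overlap, and these differences were not tested. The input change of SLC7A11 was 4.74 higher on the log2 scale in NGP than in Kelly at 6 days. RIP over input of SLC7A5 was lower in NGP than in Kelly at 6 days (-2.38), and in the xenograft it was 2.45 above NGP. RIP over input of SLC38A2 was 3.48 higher in NGP than in Kelly at 6 days. In the xenograft it was 2.92 above Kelly at 1 day and 3.73 above Kelly at 6 days.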

How the results depend on the processing

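Counts below are carriers called, or, for Kelly at 6 days, carriers without overlap. With all 8 input groups in 1 fit, the input count was 0 in Kelly at 1 day, 1 in NGP (SLC7A11) and 1 in the xenograft (SLC1A4, which did not pass the xenograft's own filter); that fit holds the 6 day Kelly inputs used in choosing the genes, so its calls support nothing. For the change of RIP over input in Kelly at 1 day it was 7 with the mitochondrial reference and 0 to 2 on leaving out 1 library; at 6 days it was 1 without the low-count filter, 8 with the mitochondrial reference and 0 to 3 on leaving out 1 library. The RIP over input count was 3 to 5 in NGP and 0 in the xenograft on leaving out 1 library, and 0 in the xenograft with the mitochondrial reference. DESeq2 called 1 change of RIP over input in the xenograft. The count for NGP minus Kelly was 5 to 8 on leaving out 1 library.

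The mitochondrial reference turned the sign of RIP over input in Kelly at 1 day for SLC7A11 (1.47), SLC3A2 (1.18), SLC38A1 (0.39), SLC38A2 (0.018) and SLC6A9 (0.14), at 6 days for SLC7A11 (4.16), SLC3A2 (4.02), SLC38A1 (3.78) and SLC38A2 (2.18), in NGP for SLC1A5 (0.51) and SLC38A1 (0.34), and in the xenograft for SLC3A2 (2.06). It did so for the change of RIP over input in Kelly at 1 day of SLC7A5 (-1.23), SLC3A2 (-1.35), SLC38A1 (-1.22), SLC38A2 (-0.76) and SLC6A9 (-1.04). At 6 days that change turned for SLC7A5 (-1.69), SLC3A2 (-2.12), SLC7A1 (-1.42), SLC1A4 (-1.86) and SLC6A9 (-1.50). It also turned for SLC1A4 in NGP (-0.087), and for SLC7A5 (-0.36) and SLC38A2 (-0.039) in the xenograft. With this reference the medians of all genes, which show this shift, were 1.57, 4.77, 0.86 and 2.03 for the ratio. For its change they were -1.47, -1.93, -0.21 and -0.36, in the same order of experiments.

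Signs of uncalled input changes turned on leaving out 1 library. In Kelly at 1 day SLC38A2 ran from -0.091 to 0.070. In NGP SLC7A5 ran from -0.17 to 0.092, SLC3A2 from -0.088 to 0.15, SLC1A4 from -0.20 to 0.14, SLC38A1 from -0.10 to 0.16 and SLC38A2 from -0.21 to 0.048. In the xenograft SLC7A5 ran from -0.61 to 0.027, SLC1A5 from -0.59 to 0.15 and SLC38A1 from -0.11 to 0.45. Apart from the input changes, the difference in RIP over input of SLC6A9, NGP minus Kelly at 1 day, ran from -0.16 to 1.16. The cause of the other shifts was not tested.

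Same-numbered libraries correlated at 0.13 or less in their deviations from the group means. With so few libraries per group this cannot decide whether the numbers pair samples, and the main fits did not pair them. With the replicate number as a block, the change of RIP over input in Kelly at 1 day had 0 calls, SLC38A1 in NGP inputs stood at 0.0035, and the other counts stayed within 1.5 times. The xenograft had the fewest libraries, the lowest depth and the widest spread, whose shares were not tested: simulated 4-fold changes of RIP over input were found there in 0% of cases, and in 64.2% in Kelly at 1 day and 85.9% in NGP.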
